A study of Mus musculus with 4 samples.

Results

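Trem2 and 5 genes of its signalling route, Tyrobp, Hcst, Syk, Plcg2 and Inpp5d, were followed in the immune cells of fatty and control livers. They were chosen by symbol, and all 6 were present among the 27998 genes counted. RNA was measured by droplet single-cell sequencing in 4 libraries of liver non-parenchymal cells sorted as CD45+ CD146-. There were 2 libraries from C57BL/6J mice fed the Amylin liver NASH model diet, made to produce steatohepatitis (NASH below), set against 2 libraries from C57BL/6J mice fed a control diet. Livers of both groups were perfused and digested with flavopiridol, a transcription inhibitor, present. No allele or other agent distinguishes the groups in the labels. The age and sex of the mice, the time on diet and the number of mice in a library were not given in the sources used here, so the spread between libraries may be technical.

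TREM2 is a receptor of macrophages and microglia that binds lipids, lipoproteins and dying cells. It has no signalling tail of its own and sits in the membrane with adaptors: TYROBP (DAP12), whose ITAM motif recruits the kinase SYK when phosphorylated, and HCST (DAP10), which recruits phosphatidylinositol 3-kinase. SYK then activates phospholipase C gamma, PLCG2 in myeloid cells, while the lipid phosphatase INPP5D (SHIP1) removes the products of phosphatidylinositol 3-kinase and dampens the route. In fatty liver and in fat tissue, Trem2 is known as a marker of lipid-associated macrophages. TYROBP is not particular to TREM2: many activating receptors of myeloid and natural killer cells use it.

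In the mm10 build with GENCODE vM21, Trem2 (ENSMUSG00000023992) lies at chr17:48346401-48354147 on the plus strand and Syk (ENSMUSG00000021457) at chr13:52583173-52648792 on the plus strand. Tyrobp (ENSMUSG00000030579, chr7:30413760-30417585, plus strand) and Hcst (ENSMUSG00000064109, chr7:30417712-30419854, minus strand) are neighbours that face each other tail to tail across 126 bases. The 3' ends that droplet libraries read are therefore close together there, and whether reads were counted by strand is not given in the sources used here. Plcg2 (ENSMUSG00000034330, chr8:117498291-117635142, plus strand) overlaps Gm27361 on the other strand. Inpp5d (ENSMUSG00000026288) lies at chr1:87620312-87720507 on the plus strand.

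Promoters were taken from RefSeq (GRCm38.p6), from 250 bases before to 50 bases after the start, and 5 of the 6 genes matched. Those of Trem2 (chr17:48346151-48346450, plus strand), Hcst (chr7:30419805-30420104, minus strand) and Inpp5d (chr1:87620062-87620361, plus strand) are shown, because they set the receptor gene beside an adaptor gene and the inhibitor gene of its route. Capitals mark a match to TGANTCA in Trem2, and matches to AGGAAGT, a core bound by PU.1 and other ETS factors, in Hcst and Inpp5d. TGANTCA is a loose form of the core bound by AP-1 factors, with any central base allowed. The usual core has C or G there, and the Trem2 stretch has A.
Trem2: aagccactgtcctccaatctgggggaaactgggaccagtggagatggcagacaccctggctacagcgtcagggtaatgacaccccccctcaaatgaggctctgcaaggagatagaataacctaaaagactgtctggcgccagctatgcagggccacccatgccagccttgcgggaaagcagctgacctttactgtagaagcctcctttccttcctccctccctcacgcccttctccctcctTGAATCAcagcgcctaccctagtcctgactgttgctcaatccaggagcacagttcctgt
Hcst: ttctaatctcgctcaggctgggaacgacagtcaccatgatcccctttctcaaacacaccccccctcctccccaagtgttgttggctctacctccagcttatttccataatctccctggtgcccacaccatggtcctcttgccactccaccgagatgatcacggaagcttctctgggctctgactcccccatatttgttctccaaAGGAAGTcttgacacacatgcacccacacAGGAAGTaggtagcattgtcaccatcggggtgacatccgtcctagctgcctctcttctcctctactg
Inpp5d: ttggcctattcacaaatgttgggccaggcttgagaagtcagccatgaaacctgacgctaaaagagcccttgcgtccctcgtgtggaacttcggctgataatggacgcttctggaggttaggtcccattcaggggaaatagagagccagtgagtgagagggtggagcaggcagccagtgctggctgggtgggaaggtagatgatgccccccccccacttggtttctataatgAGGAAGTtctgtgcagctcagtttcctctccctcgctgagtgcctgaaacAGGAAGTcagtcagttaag
Counted from the start, the Trem2 match begins at position -9, the Hcst matches at -46 and -17, and the Inpp5d matches at -19 and 32. Both strands were searched with these motifs and with TCACGTG, and the motifs were chosen after the sequences had been seen. The Plcg2 promoter held 1 TCACGTG match, at -21, and neither Syk promoter held a match to any of the motifs. Of 32851 RefSeq promoters of this length, 7.81% held TGANTCA, 9.35% held AGGAAGT and 3.77% held TCACGTG. The matches do not overlap each other and are descriptions of letters, not of bound sites.

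The libraries differed in depth, and macrophage states differed by library. The NASH libraries held 1639 and 1933 barcodes with medians of 7447 and 7344 unique molecular identifiers (UMIs, counted molecules), against 1550 and 1805 barcodes with medians of 3064.5 and 2573 UMIs in control libraries. After filters, 6158 of 6927 barcodes were kept, and any pair of libraries shared 2 to 8 barcodes. Median mitochondrial shares were 3.43% and 3.21% in NASH libraries and 6.43% and 6.23% in control libraries. Clusters high in C1qa, C1qb and C1qc (C1q, complement made by tissue macrophages) and without another lineage's genes were called macrophage-like, which gave 725 and 995 cells in NASH and 978 and 874 in control. The diets filled different clusters of that class. In addition, 723 of the 978 control replicate 1 cells lay in a cluster led by Fkbp5 and Fosb, while 518 of the 874 control replicate 2 cells lay in a cluster led by Cxcl13 and Marco.

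Over all kept cells there were 120137 UMIs of Tyrobp, 19104 of Trem2, 5867 of Hcst, 3522 of Syk, 3462 of Inpp5d and 1324 of Plcg2. Tyrobp was seen in 91.7% of cells, Trem2 in 43.9% and Plcg2 in 17.7%, so statements on Plcg2 rest on the fewest molecules. Levels below are counts per 1000000 UMIs of a class total in a library (CPM). Where diets are compared, the total is instead that of the genes that passed the low-count filter in the class, multiplied by edgeR's TMM factor of the library (scaled CPM), so scaled CPM and CPM are not to be set against each other. Only 3' ends are counted, so levels of different genes also reflect how well each transcript is captured.

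In macrophage-like cells on the NASH diet the receptor and its ITAM adaptor were higher, the kinase was lower, and the other 3 genes did not pass the test. Trem2 had 1166 and 1009 scaled CPM in NASH libraries, against 47.6 and 57.8 in control libraries. The groups did not overlap, and the NASH mean was 20.6 times the control mean. Trem2 rose by 4.37 on the log2 scale (SE 0.179, n = 2 libraries each; BH-adjusted p = 3.69e-07 by edgeR's quasi-likelihood F test, the p-values adjusted over all genes by the Benjamini-Hochberg method), from 13346 UMIs in NASH and 365 in control. With 2 libraries a group, an exact permutation test of 1 gene cannot go below p = 0.333, so calls rest on the model fitted across all genes.

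Tyrobp, the ITAM adaptor, had 4656 and 4698 scaled CPM in NASH libraries, against 2478 and 2035 in control libraries. Both NASH libraries were above both control libraries, and the mean was 2.07 times higher (log2 difference 1.05, SE 0.153, BH-adjusted p = 0.000419 by edgeR's quasi-likelihood F test). When only cells with at least 500 genes and at most 5% mitochondrial UMIs were used, the difference was 0.47 (SE 0.145, adjusted p = 0.0343). Hcst, the adaptor that recruits phosphatidylinositol 3-kinase, had 144.5 and 166 scaled CPM in NASH libraries, against 168 and 154 in control libraries. The groups overlapped, and the log2 difference was -0.05 (SE 0.139, adjusted p = 0.789).

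Syk, the kinase recruited by the ITAM, had 104.5 and 89.0 scaled CPM in NASH libraries, against 130 and 166 in control libraries. Both NASH libraries lay below both control libraries, and Syk fell by 0.61 on the log2 scale (SE 0.158, BH-adjusted p = 0.0098 by edgeR's quasi-likelihood F test). The call was lost without NASH replicate 2, where the difference was -0.49 and the adjusted p 0.101. Plcg2, the phospholipase downstream of Syk, had 28.8 and 28.0 scaled CPM in NASH libraries, against 31.3 and 30.3 in control libraries (log2 difference -0.12, SE 0.160, adjusted p = 0.572). Inpp5d, the inhibitory phosphatase, had 99.9 and 104 scaled CPM in NASH libraries, against 117 and 133 in control libraries (log2 difference -0.29, SE 0.136, adjusted p = 0.108). Neither of these differences was called by the test. Without control replicate 1 the Inpp5d difference was -0.39 and was called, at an adjusted p of 0.0483.

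The 3 calls among 6 genes stand beside a class in which 43.6% of the 10241 genes tested were called, 22.9% higher and 20.7% lower in NASH. The scaling of the libraries changed the calls of 3 genes. Scaling to library totals alone shifted the median of all genes to -0.40 (log2), and on that scale Hcst (-0.43, adjusted p = 0.0263), Plcg2 (-0.50, adjusted p = 0.0236) and Inpp5d (-0.67, adjusted p = 0.00255) were also called lower. Their differences are to be read beside that shift of all genes. On the same scale Trem2 (3.99) and Tyrobp (0.67) were called higher and Syk was called lower. Median-of-ratios and upper-quartile scaling gave the same calls for the 6 genes as TMM. Leaving the 6 genes and all pathway genes below out of the clustering gave 4.38 for Trem2, 1.04 for Tyrobp and -0.60 for Syk.

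**Figure D1:**
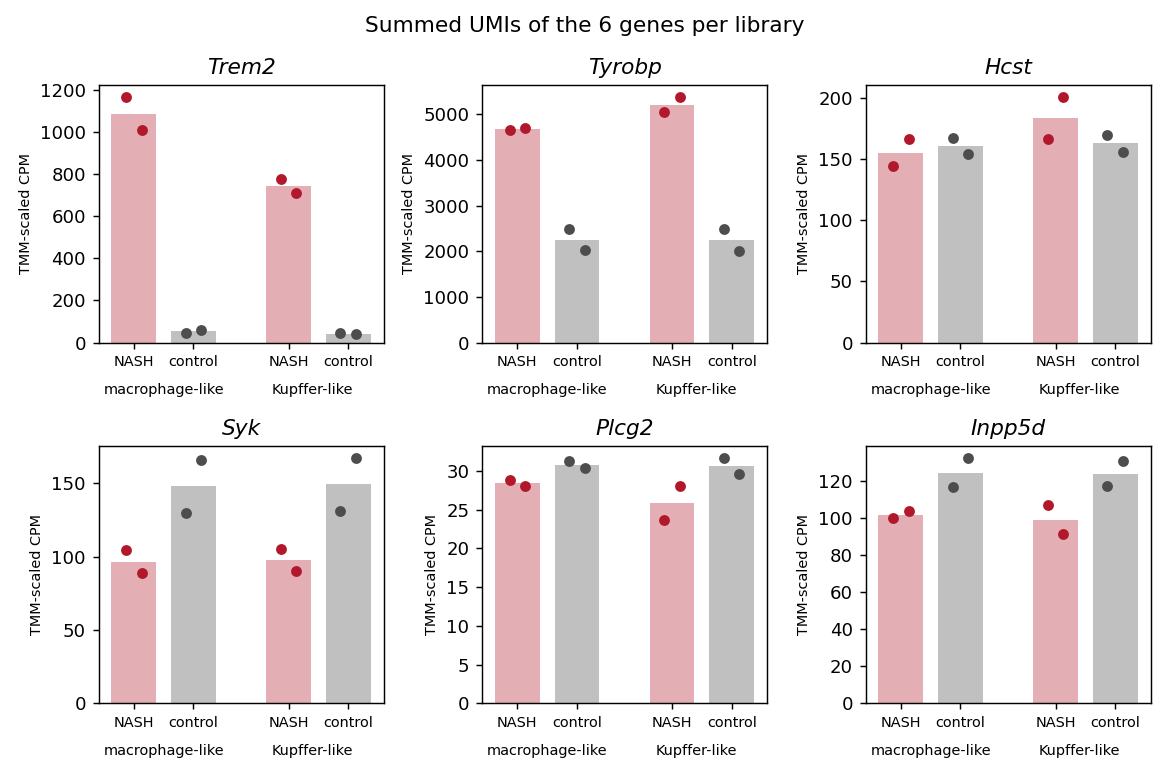
Scaled CPM (y axes, linear, from 0) of the 6 genes in macrophage-like and Kupffer-like sums, with NASH left of control; bars are means of 2 libraries and points are single libraries. Trem2 stands at 1166 and 1009 in NASH macrophage-like sums against 47.6 and 57.8 in control ones, while the Hcst points of the diets overlap.

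Trem2 also rose in Kupffer-like cells, the macrophage-like clusters with Clec4f and Vsig4 in nearly all cells. Both genes mark the resident macrophages of the liver. By this cluster rule, Kupffer-like cells made up 40.7% and 46.3% of macrophage-like cells in NASH libraries, against 99.2% and 96.5% in control libraries. Trem2 had 776 and 708 scaled CPM in NASH Kupffer-like cells, against 43.3 and 42.0 in control ones (log2 difference 4.12, SE 0.171, BH-adjusted p = 4.35e-08 by edgeR's quasi-likelihood F test). The groups did not overlap, in a class with 37.8% of genes called. Tyrobp had 5049 and 5376 scaled CPM in NASH, against 2488 and 2005 in control (1.21, SE 0.168, adjusted p = 0.000226). With the stricter cell filter that difference was 0.56 (SE 0.152, adjusted p = 0.0234). Syk had 105 and 90.5 scaled CPM in NASH, against 131 and 167 in control (-0.61, SE 0.167, adjusted p = 0.0127). The Syk call in this class was lost without NASH replicate 2 (adjusted p = 0.124) and without control replicate 2 (adjusted p = 0.0669), with the stricter cell filter (0.0774) and in thinned cells (0.0958). Hcst, Plcg2 and Inpp5d did not pass, with log2 differences of 0.17, -0.24 and -0.32.

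Macrophage-like cells outside the Kupffer-like clusters numbered 430 and 534 in NASH libraries, against 8 and 31 in control libraries. The control levels therefore come from few cells. The split is by cluster, and many cells outside also carried the Kupffer markers. Clec4f was seen in 73.5% and Vsig4 in 71.8% of cells of the cluster led by Mmp12 and Mmp13. In the cluster led by Cx3cr1 and H2-M2 the shares were 43.7% and 35.2%. For scale, each was seen in 29.1% of B cell-like cells. By a rule of at least 5 cells per library, added after the cell numbers were seen, Trem2 had 1405 and 1242 scaled CPM in NASH, against 352 and 393 in control. That is a log2 difference of 1.81 (SE 0.198, BH-adjusted p = 3.99e-17 by edgeR's quasi-likelihood F test), in a class where 4.22% of genes were called. Tyrobp had 4249 and 3997 scaled CPM in NASH, against 2813 and 2834 in control (0.55, SE 0.148, adjusted p = 0.00894). On the CPM scale, the 31 such cells of control replicate 2 had 415 CPM of Trem2, against 48.4 ± 0.602 CPM in control Kupffer-like cells (SD, n = 2).

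The share of Kupffer-like cells differed between the diets, and the levels were also computed at a common share. Pooled over macrophage-like cells, Trem2 was at 944 CPM in NASH and 59.3 CPM in control. Weighting the NASH Kupffer-like and other levels by the control mix gave 661 CPM for Trem2. Tyrobp was at 4097 CPM in NASH, or 4562 CPM at the control mix, against 2591 CPM in control, so its NASH level was higher at the control mix than as measured. Syk was at 83.9 CPM in NASH, or 84.6 CPM at the control mix, against 166 CPM in control. This holds only the share of Kupffer-like clusters fixed, and many cells outside them also carried Clec4f and Vsig4. In NASH, 295 of 295 and 458 of 461 Kupffer-like cells lay in the cluster led by Folr2 and Apoc1. In control, 28 of 970 and 36 of 843 did, so states within the Kupffer-like cells still differed.

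Among the C1q-high clusters Trem2 formed a graded order that Tyrobp did not follow. These clusters were drawn from the expression of the same cells, with Trem2 and Hcst among the 2000 variable genes used, and the values are a description. In NASH libraries Trem2 stood at 1363 and 1149 CPM in the cluster led by Mmp12 and Mmp13, which is nearly absent from control livers (238 and 232 cells against 0 and 1). The cluster led by Cx3cr1 and H2-M2, with Trem2 among its 10 leading genes, had 1122 and 1104 CPM in NASH and 421 CPM in control replicate 2. The Folr2 and Apoc1 cluster, Kupffer-like and present in all libraries, had 676 and 624 CPM in NASH libraries, against 138 and 116 CPM in control libraries. Control-diet clusters led by Fkbp5 and Fosb, by Hmox1 and Marco and by Cxcl13 and Marco had 37.6 to 98.2 CPM in control libraries.

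Tyrobp within the Folr2 and Apoc1 cluster stood at 4400 and 4723 CPM in NASH libraries, against 4283 and 4521 CPM in control libraries. The groups overlapped there, unlike in the class as a whole, although the control cells of that cluster numbered 28 and 36 and no test was run. In the Mmp12 and Mmp13 cluster of NASH libraries, where Trem2 stood at 1363 and 1149 CPM, Tyrobp was at 3837 and 3737 CPM. The control-only Hmox1 and Marco cluster, of shallow cells with a median of 1835 UMIs, had 1394 and 1442 CPM of Tyrobp. Syk in the Folr2 and Apoc1 cluster was at 91.8 and 79.7 CPM in NASH libraries, against 104 and 138 CPM in control libraries.

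**Figure D2:**
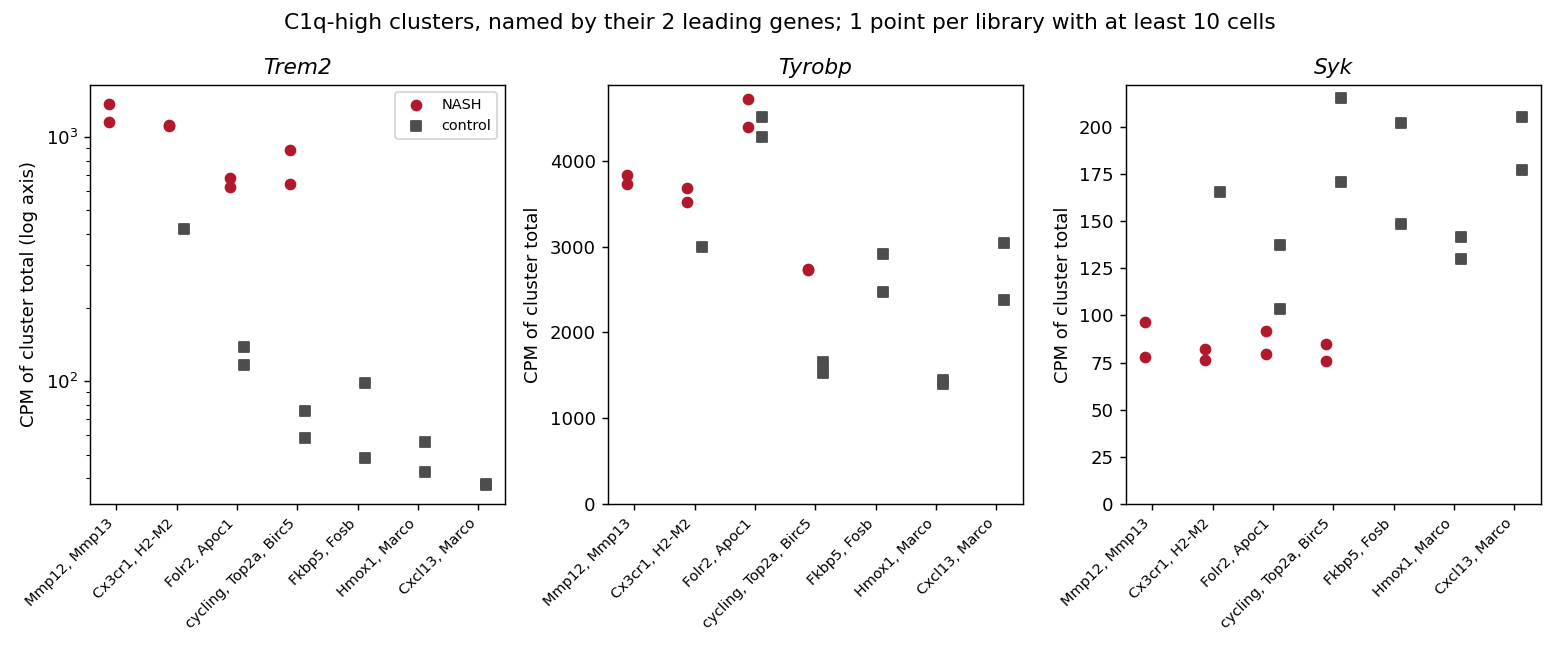
CPM of the cluster total for Trem2 (log axis), Tyrobp and Syk (linear axes) in each C1q-high cluster, named by its leading genes, with 1 point per library. Trem2 in the Mmp12 and Mmp13 cluster reaches 1363 and 1149 CPM in NASH libraries, while Tyrobp in the Folr2 and Apoc1 cluster lies between 4283 and 4723 CPM on both diets.

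Macrophage-like cells were also divided by single genes in place of clusters. A cell counted as positive for a gene with at least 1 UMI, a rule that moves with depth. Cells positive for Clec4f and Timd4, a marker of embryonic Kupffer cells, had 732 and 643 CPM of Trem2 in NASH (108 and 198 cells), against 48.1 and 51.8 CPM in control (688 and 577 cells). Clec4f+ Timd4- cells without Gpnmb had 661.5 and 629 CPM in NASH, against 57.9 and 53.1 CPM in control. Clec4f+ Timd4- cells with Gpnmb, a lysosomal glycoprotein of lipid-laden macrophages, had 1244 and 1146 CPM in NASH. Clec4f- cells had 1404 and 1236 CPM in NASH without Ccr2, the monocyte chemokine receptor, and 1112 and 1160 CPM with it. Control replicate 2 held 16 Clec4f- Ccr2- cells, with 475 CPM.

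Per cell, NASH libraries had larger shares of cells with Trem2 and of cells with at least 2 UMIs of it. At a fixed depth both shares rise with the mean level, so they do not separate detection from amount. Macrophage-like cells were thinned to 1000 UMIs each, leaving out 0 and 0 shallower cells in NASH and 13 and 9 in control. Trem2 was seen in 55.9% and 52.1% of NASH cells, against 3.94% and 4.74% of control cells. The exact binomial 95% intervals ran from 52.2% to 59.5% and from 48.9% to 55.2% in NASH, against 2.80% to 5.37% and 3.42% to 6.38% in control, and cover counting error only. Before thinning the shares were 94.8% and 89.8% in NASH and 13.5% and 12.8% in control. As a gauge of free RNA, T cell-like cells, which should lack Trem2, showed it at the same depth in 6.25% and 7.41% of NASH cells. None of 11 and 29 control T cell-like cells held it, which allows shares of up to 27.3% and 10.3%, so these few cells set no useful limit. Plasmacytoid dendritic cell-like cells gave more: 0 of 75 and 0 of 172 control cells held a Trem2 UMI at this depth, which allows shares of up to 4% and 1.74%. The control macrophage-like share was just under that limit in replicate 1 and above it in replicate 2. In summed counts, control macrophage-like cells had 53.9 and 66.0 CPM of Trem2, against 5.25 and 3.79 CPM in control plasmacytoid dendritic cell-like cells, which held 2 and 3 UMIs. At least 2 Trem2 UMIs were found in 25.0% and 23.9% of NASH macrophage-like cells, against 0.207% and 0.347% of control ones.

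At the same depth, Tyrobp was seen in 95.6% and 97.5% of NASH macrophage-like cells, against 85.2% and 75.4% of control ones. Syk was seen in 9.38% and 6.93% of NASH cells, against 15.1% and 15.95% of control cells, and Inpp5d in 6.90% and 8.04% against 13.3% and 13.6%. Hcst was seen in 11.9% and 12.1% of NASH cells, against 16.4% and 14.8% of control cells. These shares are per fixed total, as in library-total scaling. Within a NASH library Tyrobp was no higher in cells with a Trem2 UMI: the means per thinned cell were 3.86 with Trem2 and 4.03 without it in NASH replicate 1, and 3.83 and 4.29 in NASH replicate 2. In control libraries they were 2.92 with and 2.46 without in replicate 1, and 2.73 and 1.96 in replicate 2, from 38 and 41 cells with Trem2. Most NASH cells without a Trem2 UMI at this depth had held one before thinning. The split in NASH libraries therefore says little about whether Trem2 and Tyrobp vary together from cell to cell.

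The proportions of the receptor complex in RNA therefore differed by diet. For every 100 Tyrobp UMIs, NASH macrophage-like cells held 25.0 and 21.5 of Trem2, against 1.92 and 2.84 in control cells. They held 3.10 and 3.54 of Hcst per 100 Tyrobp UMIs, against 6.76 and 7.58 in control cells, and 2.24 and 1.89 of Syk, against 5.25 and 8.16. Ratios between genes of 1 library do not depend on the scaling of totals. These 3 share Tyrobp as their base, so a higher Tyrobp count by itself lowers the Hcst and Syk ratios. Per 100 Syk UMIs, Inpp5d stood at 95.6 and 117 in NASH, against 89.7 and 79.8 in control, and Plcg2 at 27.5 and 31.5 in NASH, against 24.1 and 18.3 in control.

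Across cell classes the 6 genes had different distributions. Orders below are among classes with at least 10 cells in both libraries of a diet, 14 in NASH and 8 in control, unless a single library is named. Trem2 on the NASH diet averaged 951 ± 86.7 CPM in macrophage-like cells (SD, n = 2 libraries), the first of the 14 classes. An unnamed C1q-high cluster led by Cd3d (828 ± 221) and cycling C1q-high cells (761 ± 171) followed, and the spreads of these 3 overlap. B cell-like (507 ± 200), neutrophil-like (457.5 ± 47.1) and monocyte-like cells (405 ± 20.4) came next and also overlap one another. At the low end were NK cell or ILC1-like (41.3 ± 31.2), T cell-like (41.7 ± 2.27) and plasmacytoid dendritic cell-like cells (29.6 ± 14.8). On the control diet cycling C1q-high (66.7 ± 11.9) and macrophage-like cells (60.0 ± 8.53) led the 8 classes, within their spread, and T cell-like and plasma cell-like cells were at 0 UMIs.

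Among these classes Tyrobp was highest in plasmacytoid dendritic cell-like cells, whose receptor Siglec-H signals through it, with 6622 ± 345 CPM in NASH and 5971 ± 143 in control. The 10 neutrophil-like cells of control replicate 2, a class too small in the other control library to be ordered, had 6355 CPM. Macrophage-like (4092 ± 71.4) and monocyte-like cells (3999 ± 217) followed in NASH and did not differ beyond their spread, and neutrophil-like cells had 3473 ± 331. NK cell or ILC1-like cells, where TYROBP serves activating NK receptors, had 2398 ± 385 CPM in NASH. Dendritic cell-like cells, made up of an Xcr1-led and a Fscn1- and Ccr7-led cluster, had 932 ± 22.5 CPM in NASH and T cell-like cells 236 ± 42.4, the lowest of the 14, while an unnamed cluster led by Cd209a had 2968 ± 97.6. Hcst had the opposite tilt: NK cell or ILC1-like (1020 ± 216) and T cell-like cells (818 ± 84.4) led in NASH, where it is known as the adaptor of NKG2D, and T cell-like cells led the 8 control classes at 976 ± 11.1. The 20 NK cell or ILC1-like cells of control replicate 2 had 1600 CPM of it. Macrophage-like cells had 136 ± 15.0 CPM of Hcst in NASH and 183 ± 9.76 in control.

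Syk was highest in NASH in B cell-like cells, at 150 ± 30.7 CPM, and SYK is also the kinase of the B cell receptor. In control, B cell-like (193 ± 33.0), cycling C1q-high (193 ± 31.6) and macrophage-like cells (168.5 ± 29.8) did not differ beyond their spread. Macrophage-like cells had 84.6 ± 8.68 CPM in NASH, and T cell-like cells, which use ZAP70 in its place, had 5.01 ± 7.09 in NASH and 9.68 ± 13.7 in control. Plcg2 led in NASH in an unnamed cluster led by Cd209a (79.5 ± 6.26), in plasmacytoid dendritic cell-like (72.8 ± 5.16) and in monocyte-like cells (64.0 ± 6.62). Its level in macrophage-like cells was 24.8 ± 0.201 CPM in NASH and 35.1 ± 0.583 in control, and no NASH T cell-like cell held a Plcg2 UMI. Inpp5d was the most even of the 6 in NASH, from 23.4 ± 2.41 CPM in T cell-like cells to 89.2 ± 3.49 in macrophage-like cells, with the other 12 classes between 58.1 and 87.6. Among the 8 control classes it led in macrophage-like cells at 142 ± 13.5.

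**Figure D3:**
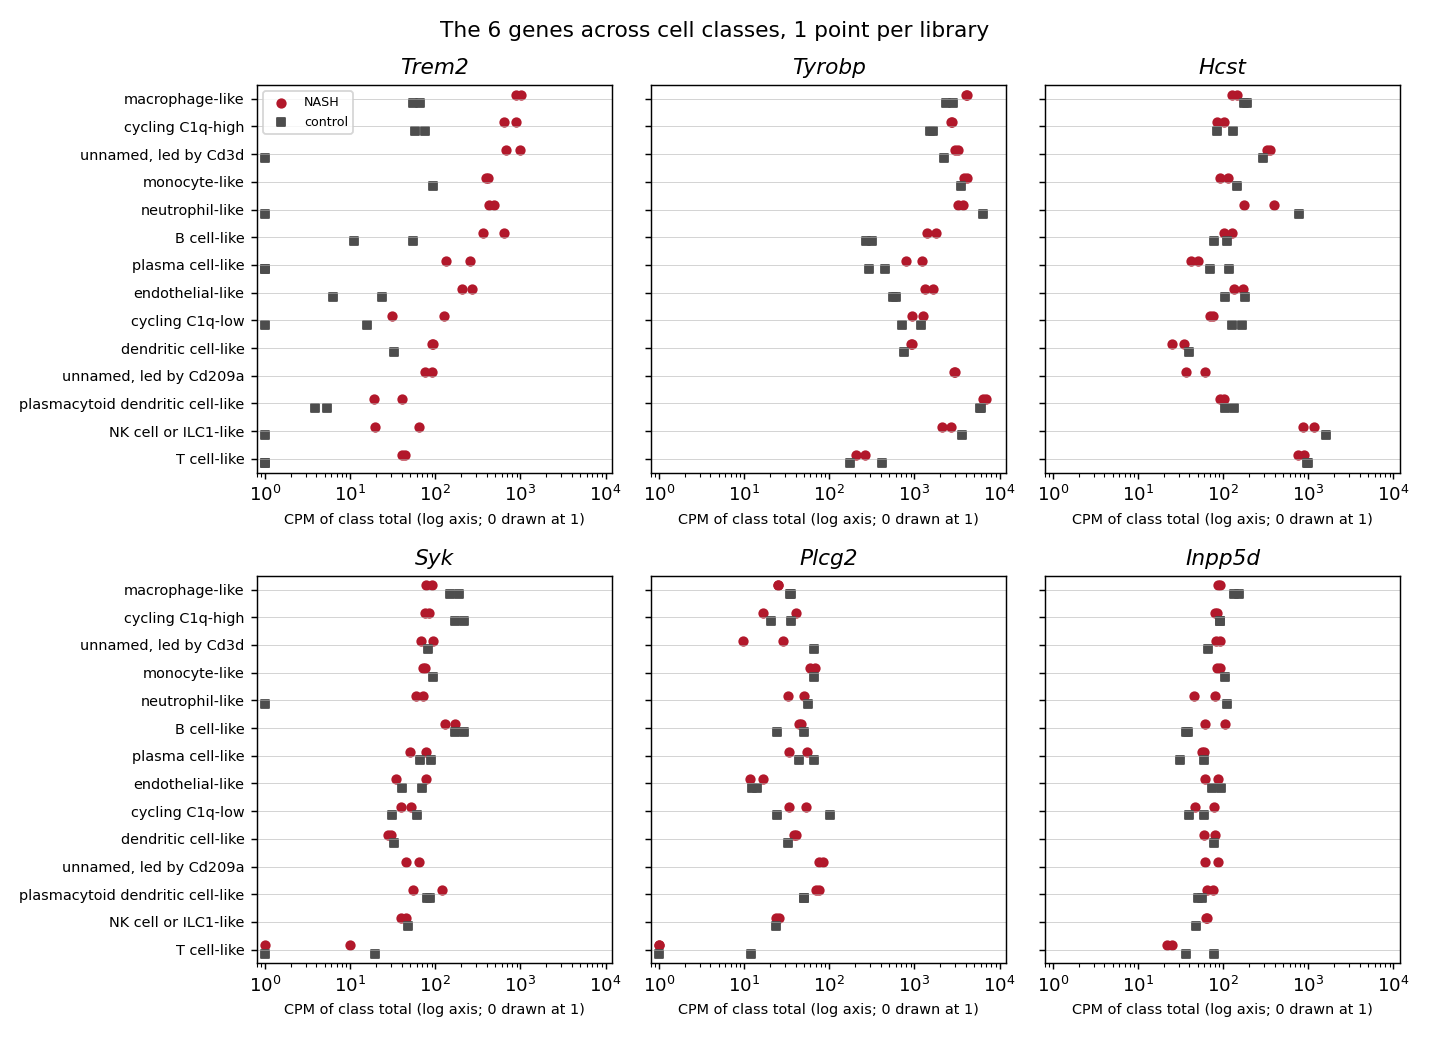
CPM of the class total (log axes, with 0 drawn at 1) for the 6 genes in 14 classes, with 1 point per library of at least 10 cells and NASH beside control. Trem2 in NASH runs from 29.6 CPM in plasmacytoid dendritic cell-like cells to 951 CPM in macrophage-like cells, and Tyrobp in plasmacytoid dendritic cell-like cells averages 6622 CPM in NASH and 5971 CPM in control, with the control neutrophil-like point at 6355 CPM.

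The diet difference of Trem2 was also called in classes that do not include macrophages by name. Cycling C1q-high cells, which carry macrophage genes, had 1026 and 740 scaled CPM in NASH, against 54.3 and 68.5 in control (3.85, SE 0.245, BH-adjusted p = 4.15e-09 by edgeR's quasi-likelihood F test), where 24.6% of genes were called. Tyrobp rose there by 1.12 (SE 0.123, adjusted p = 4.06e-06) and Syk fell by 0.92 (SE 0.232, adjusted p = 0.00735). With the stricter cell filter, Tyrobp in that class was at 0.41 (adjusted p = 0.173). The Syk call was lost without control replicate 2, at an adjusted p of 0.0557, and with DESeq2, at 0.0635.

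B cell-like cells had 684 and 375 scaled CPM of Trem2 in NASH, against 66.4 and 12.4 in control (3.79, SE 0.559, BH-adjusted p = 0.00218 by edgeR's quasi-likelihood F test), in a class with 17.7% of genes called. That fold rests on 441 Trem2 UMIs in NASH and only 11 in control. Tyrobp had 1894 and 1451 in NASH, against 384 and 304 in control (2.28, SE 0.211, adjusted p = 2.09e-09). C1q, which B cells do not make, moved with both: 6295 and 4720 CPM in NASH B cell-like cells, against 831 and 749 CPM in control ones. Trem2 per 1000 C1q UMIs was 103 and 77.5 in NASH B cell-like cells and 60.3 and 45.9 in NASH macrophage-like cells. The part of C1q-bearing cells or free RNA in these calls was not tested. At Leiden resolution 2.0 the B cell-like cells numbered 28 and 58 in NASH and 40 and 53 in control, in place of 47 and 91 in NASH and 41 and 55 in control. Trem2 did not pass the low-count filter in that set, and Tyrobp was at 0.05 (adjusted p = 0.981). With cells assigned singly by marker scores Trem2 also did not pass the filter, and Tyrobp was at 0.36 (adjusted p = 0.686).

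Endothelial-like cells had 308 and 231 scaled CPM of Trem2 in NASH, against 25.5 and 6.57 in control (4.22, SE 0.436, BH-adjusted p = 9.66e-06 by edgeR's quasi-likelihood F test), in a class with 10.1% of genes called. Tyrobp had 1914 and 1467 in NASH, against 668.5 and 594.5 in control (1.43, SE 0.204, adjusted p = 0.00024). C1q stood at 4618 and 4198 CPM in NASH endothelial-like cells, against 2465 and 1195 CPM in control ones, and its part was not tested. Endothelial-like sums held 167 Trem2 UMIs in NASH and 7 in control, and Trem2 passed the low-count filter there through the NASH libraries alone. It did not pass the filter in that class with cells assigned singly or thinned. Plasma cell-like cells held 89 Trem2 UMIs in NASH and 0 in control (adjusted p = 1.85e-07), and Tyrobp had 1343 and 920 scaled CPM in NASH, against 529 and 358 in control (1.35, SE 0.252, adjusted p = 0.000144), with 8% of genes called. The Tyrobp call in that class was lost in cells thinned to 1000 UMIs (0.76, adjusted p = 0.342). C1q was at 2600 and 2794 CPM in NASH plasma cell-like cells, against 648 and 345 CPM in control ones, and its part was not tested. With 0 UMIs in control, Trem2 passed the low-count filter in that class through the NASH libraries alone.

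Plasmacytoid dendritic cell-like cells, which carry the most Tyrobp, had 7138 and 6601 scaled CPM of it in NASH, against 6554 and 6727 in control. The groups overlapped (log2 difference 0.05, SE 0.0679, adjusted p = 0.856 by edgeR's quasi-likelihood F test). None of the members tested was called in that class, where 2.09% of genes were. Trem2, with 16 UMIs in NASH and 5 in control, did not pass the low-count filter there. C1q was low there on both diets, at 790 and 291 CPM in NASH and 381 and 300 CPM in control. T cell-like cells also had no called member, with 0.518% of genes called. Trem2 (16 UMIs in NASH, 0 in control), Syk (2 and 1), Plcg2 (0 and 1) and Inpp5d (9 and 7) did not pass the low-count filter there. C1q-low cycling cells had no called member, with 2.01% of genes called. Trem2, with 51 UMIs in NASH and 2 in control, did not pass the filter in that class. In monocyte-like cells, tested by the added rule with 8 and 14 control cells, Trem2 had 466 and 423 scaled CPM in NASH, against 20.8 and 93.7 in control (2.78, SE 0.412, adjusted p = 0.000876), with 2.19% of genes called. That fold rests on 1130 Trem2 UMIs in NASH and only 8 in control. C1q in those cells was at 3429 and 5529 CPM in NASH, against 7488 and 2607 CPM in control, and the diets overlapped. Macrophage-like cells averaged 53.1 Trem2 UMIs per 1000 C1q UMIs in NASH and 4.51 in control. The part of C1q-bearing cells or free RNA in the monocyte-like call was not tested. Neutrophil-like cells held 117 Trem2 UMIs in NASH and 0 in control, from 17 and 16 NASH cells and 5 and 10 control cells. The difference was called (adjusted p = 0.00834 by edgeR's quasi-likelihood F test, 8.14% of genes called), but Trem2 passed the low-count filter through the NASH libraries alone. C1q averaged 6775 CPM in NASH neutrophil-like cells and was at 4961 CPM in the 10 cells of control replicate 2, and its part was not tested. By the rule of at least 5 cells, no member was called in dendritic cell-like cells (2.83% of genes called) or in NK cell or ILC1-like cells (3.2%). In the latter Hcst had 1492 and 1112 scaled CPM in NASH, against 2095 and 2096 in control (adjusted p = 0.136 by edgeR's quasi-likelihood F test). Trem2 (11 UMIs in NASH, 0 in control), Syk (12 and 2) and Plcg2 (7 and 1) did not pass the low-count filter there. Over all kept cells, where cell mix and level per cell cannot be told apart, Trem2 was higher by 4.21, Tyrobp was higher by 0.65 and Syk was lower (-0.57), with 34.8% of genes called. The Syk call over all kept cells was lost without NASH replicate 1 (adjusted p = 0.104), without NASH replicate 2 (0.107) and with the stricter filter (0.0639).

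**Figure D4:**
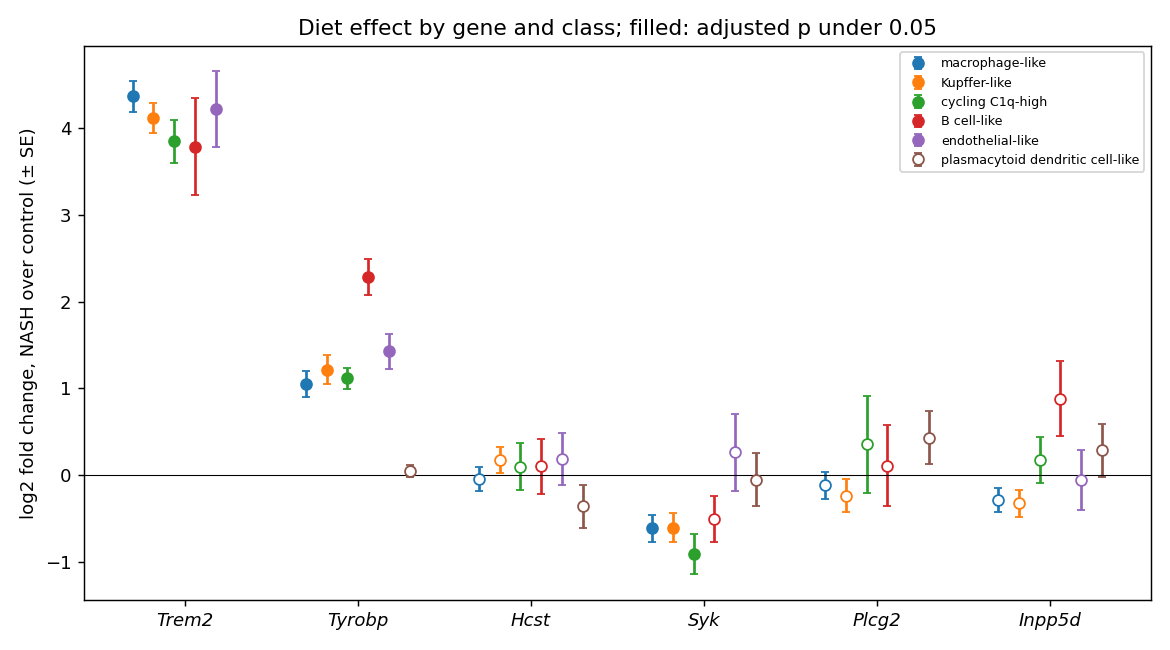
Log2 fold change of NASH over control (y axis, log2 units) with its SE for the 6 genes in 6 tested classes; filled points have an adjusted p under 0.05. Trem2 lies between 3.79 and 4.37 in the classes where its fold is shown, and Tyrobp lies at 0.05 in plasmacytoid dendritic cell-like cells against 1.05 in macrophage-like cells.

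Whether the diet difference itself varied by class was tested as an interaction over 8 sums, with the library as a block. The Tyrobp difference was larger in macrophage-like than in plasmacytoid dendritic cell-like cells by 0.91 (SE 0.186, BH-adjusted p = 5.84e-05 by edgeR's quasi-likelihood F test), where 8.35% of genes differed. With the stricter cell filter it was 0.39 (adjusted p = 0.433). It was smaller in macrophage-like than in B cell-like cells (-1.40, SE 0.210, adjusted p = 2.91e-09), where 7.76% of genes differed. That interaction turned to 1.02 (adjusted p = 0.000984) at Leiden resolution 2.0, with the smaller set of B cell-like cells, and was not called in thinned cells (-1.21, adjusted p = 0.0889). Inpp5d also differed from B cell-like cells (-1.35, SE 0.435, adjusted p = 0.0295), which had 111 and 61.6 scaled CPM in NASH, against 44.3 and 43.4 in control. This call was lost with the stricter filter (adjusted p = 0.173), at resolution 2.0 (0.388), with cells assigned singly (0.384) and in thinned cells (0.624). Against the other 5 classes no interaction of a member was called, where 0.539% (cycling C1q-high), 1.25% (cycling C1q-low), 3.75% (endothelial-like), 2.8% (plasma cell-like) and 0.842% (T cell-like) of genes were called. No interaction of Trem2, Hcst, Syk or Plcg2 was called against any of the 7 classes. For Trem2 the test could decide little where the other class held few UMIs. The value was 1.54 (SE 0.858) against plasmacytoid dendritic cell-like cells, with 16 UMIs in NASH and 5 in control. It was -7.59 (SE 3.37) against plasma cell-like cells (89 and 0) and -5.38 (SE 6.41) against T cell-like cells (16 and 0). The lack of a call therefore does not show that the diet differences were alike between classes.

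Over 53 class-by-library sums of at least 10 cells, the genes whose log2 levels ran most like Trem2 were Mmp12 (Pearson r 0.85), a macrophage elastase, Cx3cr1 (0.85), the fractalkine receptor, Clec4b1 (0.84), H2-M2 (0.80), Gdpd3 (0.78) and Cstb (0.77), an inhibitor of cathepsins. They were ranked among 8179 genes with at least 50 CPM in 1 sum or more. Its own partners ranked far lower, with Tyrobp at r 0.35 (rank 1324), Syk at 0.30, Inpp5d at 0.11, Plcg2 at 0.04 and Hcst at -0.24. Tyrobp ran most like Fcer1g (0.91), the other ITAM adaptor of myeloid cells, then Fgr (0.82), a Src family kinase, Clec12a (0.77), an inhibitory lectin, Tpd52 (0.76), Plek (0.76) and Ptpn6 (0.76), the phosphatase SHP-1. Among the partners, Plcg2 (0.53) and Inpp5d (0.46) ran closest to Tyrobp. Sums of 1 library share depth and free RNA, and sums of similar classes are not independent, so these values are descriptions.

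The genes around the route were taken from 8 lists, tested in macrophage-like cells with the same fit, against a median of -0.02 (log2) over all genes, of which 22.9% were called higher and 20.7% lower. On library totals, 1270 of the 10241 genes were called higher and 3953 lower, with a median of -0.40. The counts of each list are to be read against these. Of other receptors that pair with Tyrobp or Hcst, 14 of 22 were tested, 5 rose and 1 fell, with a median of 0.36. Clec5a, a lectin that signals through DAP12, had 27.1 and 16.75 scaled CPM in NASH, against 1.55 and 2.24 in control (3.53, SE 0.388). Sirpb1c (2.54) and Sirpb1b (1.28) rose and Cd300ld fell (-0.83). The Sirpb1 genes are near-identical copies, and reads may have been split between them. Scaling to library totals gave 4 higher and 3 lower with a median of -0.01.

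Of ITAM chains and receptors that use Syk, 6 of 10 tested rose and 2 fell, with a median of 0.85. The activating Fc receptor Fcgr1 had 307 and 391 scaled CPM in NASH, against 106 and 75.1 in control (1.94, SE 0.195), its chain Fcer1g had 4107 and 4380 in NASH, against 2226 and 2272 in control (0.92, SE 0.141), and Clec4n (Dectin-2, 0.89) and Fcgr3 (0.78) rose. The counts were the same with library totals. Of Trem2 ligands and the proteases that shed it, 6 of 15 tested rose and 3 fell, with a median of 0.22, or 4 and 4 with a median of -0.15 on library totals. Apoe, a lipoprotein that TREM2 binds, had 63057 and 62482 scaled CPM in NASH, against 13867 and 11585 in control (2.30, SE 0.160). Lgals3, the galectin that binds TREM2, rose by 2.02, Anxa1 by 4.72, and Apob fell by 3.19 on 8 UMIs in NASH and 43 in control.

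Of Src family kinases and adaptors near the ITAM, 3 of 18 tested rose and 6 fell, with a median of -0.30. Lat2, a scaffold that Syk and Src kinases phosphorylate, had 71.1 and 52.1 scaled CPM in NASH, against 2.33 and 4.47 in control (4.21, SE 0.294). Blnk, an adaptor of Syk, also rose (2.06), while Cbl (-0.85), a ubiquitin ligase, and Lyn (-0.63), a Src family kinase, fell. Of the PI3K, Akt and mTOR arm, 0 of 19 rose and 9 fell, with a median of -0.63. Akt2, a kinase of the Akt family, had 22.9 and 26.9 scaled CPM in NASH, against 47.1 and 42.8 in control (-0.85, SE 0.165), and the PI3K regulatory subunit Pik3r1 (-0.89) and the kinase Gsk3b (-0.64) fell as well. Of the phospholipase C, calcium and Card9 arm, 1 of 19 rose and 7 fell, with a median of -0.43. Tec, a kinase upstream of phospholipase C, rose (2.22), while Ppp3ca (-0.70), a calcineurin subunit, Nfatc1 (-0.68) and Map3k7 (-0.77), the kinase TAK1, fell. On library totals these 3 lists had 2 higher and 10 lower, 0 and 13, and 1 and 12. On that scale 1270 of all 10241 genes were called higher and 3953 lower, against 22.9% higher and 20.7% lower with TMM.

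Inhibitors of ITAM signalling were divided, with 6 of 24 tested higher and 8 lower and a median of -0.03. Of all genes, 22.9% were called higher and 20.7% lower, and the share higher in this list was near that of all genes. Clec12a (0.94), Lilrb4a (0.86) and Dok1 (0.77) rose, while Pirb, a receptor that recruits SHP phosphatases, had 99.9 and 93.1 scaled CPM in NASH, against 181 and 293 in control (-1.29, SE 0.216). On library totals the count was 2 higher and 11 lower. Of lipid-associated and disease-associated macrophage genes, 18 of 22 tested rose and 0 fell, with a median of 1.50. The tetraspanin Cd9 had 544 and 371 scaled CPM in NASH, against 9.31 and 9.90 in control (5.57, SE 0.238), and Itgax (4.80), the integrin CD11c, and Gpnmb (8.42, from 3654 UMIs in NASH and 6 in control) rose. On library totals 15 rose and 1 fell. Apoe and Lgals3 are in this list and in that of ligands, and the list was drawn up with its genes known to respond in such livers, so its direction is not independent evidence.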

How the data were processed

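The deposited values are raw UMI counts per gene and cell for 4 libraries, 2 per diet. The submitters' processing notes name Cell Ranger, Seurat and mm10; versions, cell calling and strand handling were not given in the sources used here. The members and lists were chosen with earlier results of these data known.

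Barcodes were kept from 200 genes upwards and up to 10% mitochondrial UMIs, and the top 0.8% of Scrublet scores per 1000 cells were removed as putative doublets. Scanpy 1.11.5 clustered them (2000 variable genes, 30 principal components, 15 neighbours, Leiden resolution 1.0 with igraph 0.11.9; scikit-learn 1.9.0, Python 3.11.15). The cells of all 4 libraries were clustered together, and no correction for library or diet was applied. A cluster took a class name from its markers, with at least 3 markers each in 25% of its cells. C1q-high clusters had C1qa, C1qb and C1qc in at least 90% of cells, and Kupffer-like clusters had Clec4f and Vsig4 in at least 80%, so those genes are selected on. Classes are rebuilt names, not the authors' own.

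Counts were summed per library and class. Classes with at least 10 cells in every library were tested with edgeR's quasi-likelihood F test (4.0.16, limma 3.58.1, R 4.3.3; TMM, filterByExpr, robust) with Benjamini-Hochberg adjustment at 0.05 over all genes; DESeq2 1.42.0 was an alternative. The SE is the log2 fold change over the root of the F statistic. The fits were tested on simulated counts. Members are named in every class, and from each list the 4 tested genes with the smallest p are named, except for 1 gene that is not reported here. Zero counts are bounded by 3 counts.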

Additional observations from a re-analysis of the deposited data

Results flagged for a closer look

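The diet difference of 2 of the genes was called as different between classes, though not under every alternative, by the interaction test over 8 sums with the library as a block (edgeR's quasi-likelihood F test, BH adjustment over all genes). For Tyrobp the macrophage-like difference minus the B cell-like difference was -1.40 (SE 0.210, adjusted p = 2.91e-09), and macrophage-like minus plasmacytoid dendritic cell-like was 0.91 (SE 0.186, adjusted p = 5.84e-05). For Inpp5d the macrophage-like minus B cell-like difference was -1.35 (SE 0.435, adjusted p = 0.0295), on 72 B cell-like UMIs in NASH and 13 in control. The Tyrobp value against B cell-like cells turned to 1.02 at Leiden resolution 2.0 and 0.59 with cells assigned singly. Against plasmacytoid dendritic cell-like cells it was 0.39 (adjusted p = 0.433) with the stricter cell filter, and the Inpp5d call was lost in 4 alternatives, at adjusted p of 0.173 to 0.624. C1q moved with both results against B cell-like cells, at 6295 and 4720 CPM in NASH B cell-like cells and 831 and 749 CPM in control ones, and its part was not tested. It was low in plasmacytoid dendritic cell-like cells on both diets, at 790 and 291 CPM in NASH and 381 and 300 CPM in control.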

How the results depend on the processing

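In macrophage-like cells Trem2 ranged from 3.70 to 4.60 (log2, highest adjusted p 5.04e-06) and Tyrobp from 0.47 to 1.24 (highest 0.0343) over 18 alternatives, called in each. Syk ranged from -0.99 to -0.43. Of 108 values for the 6 genes there, 98 kept direction and call. Library totals moved Hcst to -0.43, Plcg2 to -0.50, Inpp5d to -0.67 and the called genes to 1270 higher and 3953 lower, from a main count of 2346 and 2119. DESeq2 called 1272 lower, the stricter cell filter 1319 higher and 1219 lower, and thinned cells 1385 higher and 1086 lower. Hcst was at 0.00945 with all deposited barcodes and 0.0232 in thinned cells, and Plcg2 at 0.0440 in thinned cells; the cause was not tested. Leaving out each library gave 4.23 to 4.51 for Trem2, 0.91 to 1.19 for Tyrobp, -0.146 to 0.0540 for Hcst, -0.79 to -0.43 for Syk, -0.14 to -0.09 for Plcg2 and -0.39 to -0.20 for Inpp5d, with 1726 to 2198 genes higher and 1286 to 1938 lower; where 1 library is left in a group, its spread is assumed to equal the other group's. In Kupffer-like cells Hcst turned to -0.20 on library totals and -0.22 with the stricter filter, and Plcg2 to 0.0644 in thinned cells. Tyrobp in plasmacytoid dendritic cell-like cells ran from -0.0158 (without NASH replicate 1) to 0.105 over the libraries left out. In T cell-like cells it ran from -0.76 to 0.56 (without control replicate 2) over the libraries left out, and turned to 1.74 (adjusted p = 0.00947) at Leiden resolution 0.5 and 0.00658 with cells assigned singly. The Tyrobp interaction with B cell-like cells turned to 1.02 at resolution 2.0 and 0.59 with cells assigned singly.

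With the replicate number as a block, Trem2 was at 4.37, Tyrobp at 1.06 and Syk at -0.61 (adjusted p = 0.0189), with 2204 genes higher and 1949 lower, and no macrophage-like call of the 6 genes changed. The labels do not say that numbers pair libraries, and same-numbered libraries did not deviate together (r = -0.04 over 10241 genes).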
